A study of Mus musculus with 12 samples.

Results

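Entpd1, Nt5e, Ada and Adora2a, the genes that make, remove and sense extracellular adenosine, were followed through mouse breast tumors treated with a PARP inhibitor, a STING agonist or both. They were found by symbol among the 750 genes of a NanoString nCounter immune panel, and all 4 were present. The tumors came from the K14-Cre;Brca f/f Trp53 f/f model, called triple negative in the labels, in which the keratin 14 promoter drives Cre in epithelial cells so that floxed Brca1 (written Brca in the labels) and Trp53 are lost there. Tumor chunks had been transplanted orthotopically into syngeneic female FVB/129P2 mice, whose own vessels, stroma and immune cells were intact. Whether the chunks shared a donor tumor and the age of the mice are not given in the sources used here. Each mouse received an intraperitoneal and an intratumoral treatment, and the 4 groups held 3 tumors each, taken at day 3. Vehicle tumors had DMSO intraperitoneally and 40 μl saline in the tumor. ADU-S100 tumors had 50 μg of this cyclic dinucleotide, which activates STING, in the same 40 μl, injected on the first day. Olaparib tumors had the PARP inhibitor at 50 mg/kg daily with saline in the tumor, and combination tumors had both drugs.

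Extracellular adenosine is made from ATP that stressed or dying cells release. CD39, encoded by Entpd1, removes phosphates from ATP and ADP to give AMP, and CD73, encoded by Nt5e, turns AMP into adenosine. Adenosine deaminase, encoded by Ada, removes adenosine by turning it into inosine. The A2a receptor, encoded by Adora2a, senses adenosine on T cells and myeloid cells, where it raises cAMP and dampens activation, which is why the pathway is studied as a brake on immunity in tumors. Endothelial cells and regulatory T cells are well known carriers of CD39, and CD73 is found on endothelium, fibroblasts and lymphocytes.

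In the mouse RefSeq annotation (GRCm38.p6), Entpd1 lies at chr19:40612366-40741602, Nt5e at chr9:88327609-88372089, Ada at chr2:163726571-163750239 and Adora2a at chr10:75316877-75334792. The promoter windows of Nt5e and Entpd1 are shown because these enzymes produce the adenosine, and to give the letters beside the hypoxia and cAMP genes described below. Each holds the 250 bases before an annotated start, 5′ to 3′ on the plus strand of GRCm38.p6 as given by RefSeq, with matches in capitals. RefSeq lists 2 starts for Entpd1, and the windows are chr9:88327359-88327608, chr19:40612116-40612365 and chr19:40659520-40659769.
Nt5e: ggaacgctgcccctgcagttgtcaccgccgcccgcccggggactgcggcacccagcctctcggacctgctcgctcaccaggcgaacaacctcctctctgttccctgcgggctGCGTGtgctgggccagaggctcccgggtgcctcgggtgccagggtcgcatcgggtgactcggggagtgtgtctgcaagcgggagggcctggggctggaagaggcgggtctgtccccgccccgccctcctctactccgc
Entpd1, upstream start: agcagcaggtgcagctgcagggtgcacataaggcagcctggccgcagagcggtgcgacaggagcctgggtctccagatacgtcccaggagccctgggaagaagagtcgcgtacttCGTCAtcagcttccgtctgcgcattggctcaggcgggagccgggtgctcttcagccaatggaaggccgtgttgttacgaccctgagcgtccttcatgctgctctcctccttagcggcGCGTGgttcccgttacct
Entpd1, downstream start: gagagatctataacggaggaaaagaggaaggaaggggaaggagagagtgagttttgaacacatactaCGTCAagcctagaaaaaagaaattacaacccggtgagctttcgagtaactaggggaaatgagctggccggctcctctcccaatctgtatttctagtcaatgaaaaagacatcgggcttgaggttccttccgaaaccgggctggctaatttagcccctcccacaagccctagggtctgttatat
The letters searched on both strands were the hypoxia core (ACGTG or GCGTG), the cAMP response half-site (TGACG, which reads CGTCA on the other strand) and the full cAMP response site (TGACGTCA, which contains the half-site). The half-site and the core share letters where they meet. Nt5e is a known target of hypoxia signalling and Entpd1 of cAMP signalling, and the motifs were chosen after the sequences had been seen. The Nt5e window held a hypoxia core that began 138 bases before the start. The upstream Entpd1 window held a half-site at 135 and a hypoxia core at 18 bases before its start, and the downstream window a half-site at 183. No full site was found in them. Of 32851 mouse promoter windows of this length, 38.6% held a hypoxia core, 17.8% a half-site and 1.55% a full site. The window of Ada, chr2:163750240-163750489 on the minus strand, held none of these letters. The GC content was 72% for Nt5e, 62.4% and 47.2% for Entpd1 and 67.2% for Ada, against a median of 52.4% over all windows. A match is a description of the letters and shows no binding.

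The values below are nSolver-normalized counts, that is, counts of single probe molecules multiplied by a factor per tumor. The counts before scaling could be recovered, and their totals ranged from 106206 to 1519471 per tumor. A single count was worth between 0.589 and 10.5 normalized counts, with 10.5 in olaparib tumor 1517, 2.85 in ADU-S100 tumor 1506, 1.96 in ADU-S100 tumor 1512, 1.95 in olaparib tumor 1510 and 1.49 in vehicle tumor 1529. Tumors 1517, 1506 and 1529 had the highest median over the panel, at 8.71, 8.62 and 8.12 on the log2 scale against 7.08 to 7.70 in the other 9. Epithelial transcripts (Epcam, Cdh1 and Muc1, the 3 of 8 listed genes on the panel) summed to between 10802 and 22177 in every tumor. Each panel tumor is a bulk sample, so that fewer cells of a type and less RNA per cell cannot be told apart. The labels number the tumors without stating that each came from a different mouse, and p-values measure the spread between these tumors.

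The same 3 tumors, 1517, 1506 and 1529, held the highest normalized counts of all 4 genes, in that order for each gene. They belong to 3 different groups, and none was a combination tumor. The third highest tumor stood 3.51-fold above the fourth for Entpd1, 1.41-fold for Adora2a, 1.28-fold for Ada and 1.02-fold for Nt5e. The panel medians of these tumors were also the highest, in the same order, and 18% of the 689 genes passing the filter had the same 3 highest tumors (8.56% in this order). With the panel medians of all tumors made equal, a comparison added after the values were seen, Entpd1 kept these 3 tumors in another order (1517, 1529 and 1506), and 5.22% of the genes had them highest in any order. The highest 3 then became 1536, 1512 and 1517 for Nt5e, 1536, 1517 and 1512 for Ada and 1517, 1506 and 1512 for Adora2a. The shared order of the 4 genes was thus seen with the deposited scaling and not with equal medians. Equal medians would also remove a real difference in content, so that scaling and content cannot be told apart.

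**Figure D1:**
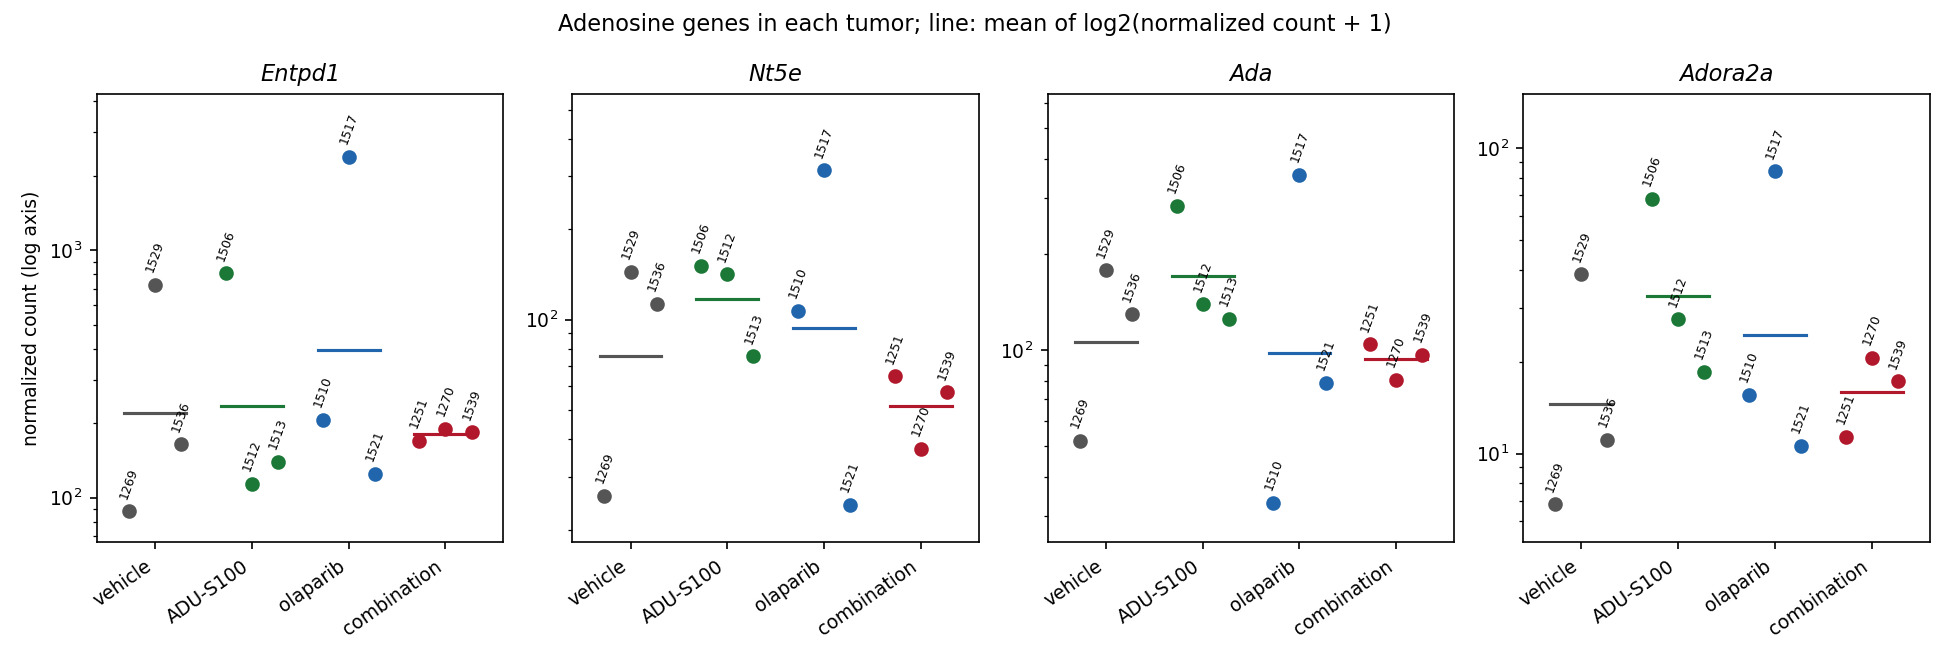
Normalized counts of Entpd1, Nt5e, Ada and Adora2a (log axis, 1 point per tumor, labelled by tumor number) in the vehicle, ADU-S100, olaparib and combination groups, with a line at the mean of log2(normalized count + 1). Tumors 1517, 1506 and 1529 are the highest in every panel, and the 3 combination tumors lie close together.

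Entpd1, the gene of CD39, had 88.0, 726 and 165 normalized counts in vehicle tumors 1269, 1529 and 1536. It had 806, 114 and 140 in ADU-S100 tumors 1506, 1512 and 1513, and 207, 2389 and 125 in olaparib tumors 1510, 1517 and 1521. The combination tumors 1251, 1270 and 1539 had 170, 190 and 184. Each group except the combination thus had a single tumor far above its other members, and the range of the combination lay inside that of every other group. The group means were 326 ± 348 for vehicle, 353 ± 392 for ADU-S100, 907 ± 1284 for olaparib and 181 ± 10.3 for the combination (SD, n = 3). From 58 to 488 counts lay behind each value, so counting error was small beside the 27.2-fold range over the 12 tumors. On the log2 scale olaparib exceeded vehicle by 0.85 (SE 1.13, limma adjusted p = 0.764), but without tumor 1517 the difference was -0.45. The combination differed from vehicle by -0.28 (SE 1.13, limma adjusted p = 0.989), from ADU-S100 by -0.37 and from olaparib by -1.12. Each of these turned when the highest tumor of the other group was left out, to 0.58 without 1529, 0.52 without 1506 and 0.17 without 1517.

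The SD of Entpd1 over the 12 tumors was 1.42 on the log2 scale, against a median of 0.83 over the genes tested, and 57 of them had a larger SD. Within groups it was 1.58, and once the panel medians of all tumors had been made equal it was 0.94 against a median of 0.71. The genes whose centred log2 pattern came closest were Thbd, Il6st and Tek, with root mean square differences of 0.32, 0.42 and 0.43 over 12 tumors, where the median gene stood at 1.19. Thbd encodes the anticoagulant receptor thrombomodulin, Il6st the signalling chain gp130, and Tek the angiopoietin receptor of endothelial cells. Tek had 35.5, 693 and 121 normalized counts in vehicle, 598, 49.1 and 95.6 in ADU-S100, 77.9, 1970 and 56.0 in olaparib and 77.8, 93.2 and 88.5 in combination tumors.

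Because of Tek, Entpd1 was also set beside the endothelial list (8 of 10 genes on the panel, Tek among them), a comparison chosen after the values were seen and so partly a restatement of that likeness. All 8 endothelial genes had 1517, 1506 and 1529 as their 3 highest tumors, against 18% of all genes tested, and 7 of 8 had them with the panel medians made equal, against 5.22%. Their summed level ranged from 1440 to 10508 normalized counts in vehicle, from 1992 to 9308 in ADU-S100, from 678 to 29992 in olaparib and from 1729 to 2214 in combination tumors. The SD of Entpd1 minus the endothelial mean within a tumor was 0.60, or 0.65 with Tek left out. It was 0.51 against the mean of Cd38 and Dpp4, described below, 0.85 against leukocyte genes or the 2 of 7 B cell genes that passed the filter, 1.05 against regulatory T cell genes, 1.11 against T cell genes and 1.17 against macrophage genes. Tumor 1510 stood apart, with Entpd1 1.68 above its average distance from the endothelial genes, while the other 11 tumors lay between -0.52 and 0.30. This tumor had the lowest endothelial sum, 678, together with the fourth highest Entpd1 value. The part of endothelial content in the Entpd1 values was not tested.

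Nt5e, the gene of CD73, had 25.9, 144 and 113 normalized counts in the vehicle tumors. It had 151, 141 and 75.6 in ADU-S100, 107, 314 and 24.2 in olaparib and 64.8, 37.1 and 57.4 in combination tumors. All 3 combination tumors lay below all 3 ADU-S100 tumors, whereas each of the other comparisons of single groups overlapped. Such a lack of overlap between the combination and ADU-S100 was found for 31.3% of the 689 genes, so the Nt5e result was no exception on this panel. The group means were 94.3 ± 61.3 for vehicle, 123 ± 41 for ADU-S100, 149 ± 149 for olaparib and 53.1 ± 14.3 for the combination (SD, n = 3). The combination was lower than ADU-S100 by 1.17 on the log2 scale, a fold of 0.445 with a 95% interval from 0.120 to 1.65 (SE 0.86, limma adjusted p = 0.630). Leaving out each tumor in turn gave differences from -1.48 to -0.93. The tumor numbers begin with 15 in all ADU-S100 tumors and with 12 in 2 of 3 combination tumors, a numbering whose meaning is not given in the labels. With the series as a block the difference was -0.34, and within series 15, where the combination is a single tumor, it was -1.02.

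Nt5e stood at -0.53 in the combination relative to vehicle (SE 0.86, limma adjusted p = 0.989) and at -0.85 relative to olaparib (limma adjusted p = 0.730). ADU-S100 alone stood at 0.63 and olaparib alone at 0.32 relative to vehicle, both smaller than their SE of 0.86. The interaction, which is the ADU-S100 effect with olaparib minus that without, was -1.48 (SE 1.22, limma adjusted p = 0.595). It was -2.44 without olaparib tumor 1521, where Nt5e was lowest, and -0.62 at the other end when other tumors were left out, and -0.24 with the number series as a block. The SD of Nt5e over the 12 tumors was 1.10, and 171 genes had a larger SD. Its closest genes were Il4ra, the interleukin 4 receptor, Ctsl, a lysosomal protease, and Socs3, a brake on cytokine signalling, at 0.38, 0.41 and 0.44 against 0.98 for the median gene. The SD of Nt5e was 1.10 both alone and after the endothelial mean was subtracted. It was 0.69 beside leukocyte genes and 0.69 beside the 2 B cell genes.

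Ada, which removes adenosine, had 51.8, 178 and 130 normalized counts in vehicle tumors. It had 285, 139 and 126 in ADU-S100, 33.1, 356 and 79.0 in olaparib and 105, 80.8 and 96.7 in combination tumors. As for Nt5e, each combination tumor lay below each ADU-S100 tumor, again against 31.3% of all genes tested, and all other pairs of groups overlapped. The lowest and the highest value of Ada were both in olaparib tumors, 1510 with 17 recovered counts and 1517 with 34. The group means were 120 ± 63.8, 183 ± 88.2, 156 ± 175 and 94.0 ± 12.1 for vehicle, ADU-S100, olaparib and the combination (SD, n = 3). The combination was lower than ADU-S100 by 0.86 on the log2 scale (SE 0.77, limma adjusted p = 0.676), and the difference ran from -1.08 to -0.50 as tumors were left out. It was -0.33 with the number series as a block and -0.81 within series 15. ADU-S100 alone stood at 0.68 relative to vehicle (SE 0.77, limma adjusted p = 0.874) and the combination at -0.18. Olaparib alone stood at -0.11 relative to vehicle, which became 0.65 without tumor 1510 and -1.04 without tumor 1517.

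The SD of Ada was 0.95 over the 12 tumors, the smallest of the 4 genes, and 0.54 beside leukocyte genes. Its closest genes were Dll4, a Notch ligand of sprouting vessels, Vegfc, a growth factor of lymphatic vessels, and Tlr8, an RNA sensor of myeloid cells, at 0.44, 0.45 and 0.46 against 0.95 for the median gene.

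Adora2a, the gene of the A2a receptor, had 6.82, 38.7 and 11.1 normalized counts in vehicle tumors. It had 68.4, 27.5 and 18.5 in ADU-S100, 15.6, 83.8 and 10.6 in olaparib and 11.3, 20.6 and 17.2 in combination tumors. Every pair of groups overlapped. These values rested on few molecules, with 10, 26 and 16 recovered counts in vehicle, 24, 14 and 13 in ADU-S100, 8, 8 and 18 in olaparib and 14, 25 and 21 in combination tumors. The highest normalized value, in tumor 1517, came from 8 counts, as did the value of 15.6 in tumor 1510. Its exact Poisson interval (95%, counting error only) was 36.2 to 165 normalized counts, and that of tumor 1510 was 6.73 to 30.7. The background was taken as the median in each tumor of the 30 genes with the lowest mean over the 12 tumors. Relative to it, Adora2a stood between 1.43-fold in vehicle tumor 1269 and 5.78-fold in vehicle tumor 1529. It stood at 1.45-fold in tumor 1510 and 2.67-fold in tumor 1517. For comparison, the lowest such value was 11.6 for Entpd1, 5.43 for Nt5e and 3.09 for Ada. Adora2a reached the filter value of 20 normalized counts in 5 of 12 tumors, and the other genes in all 12.

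**Figure D2:**
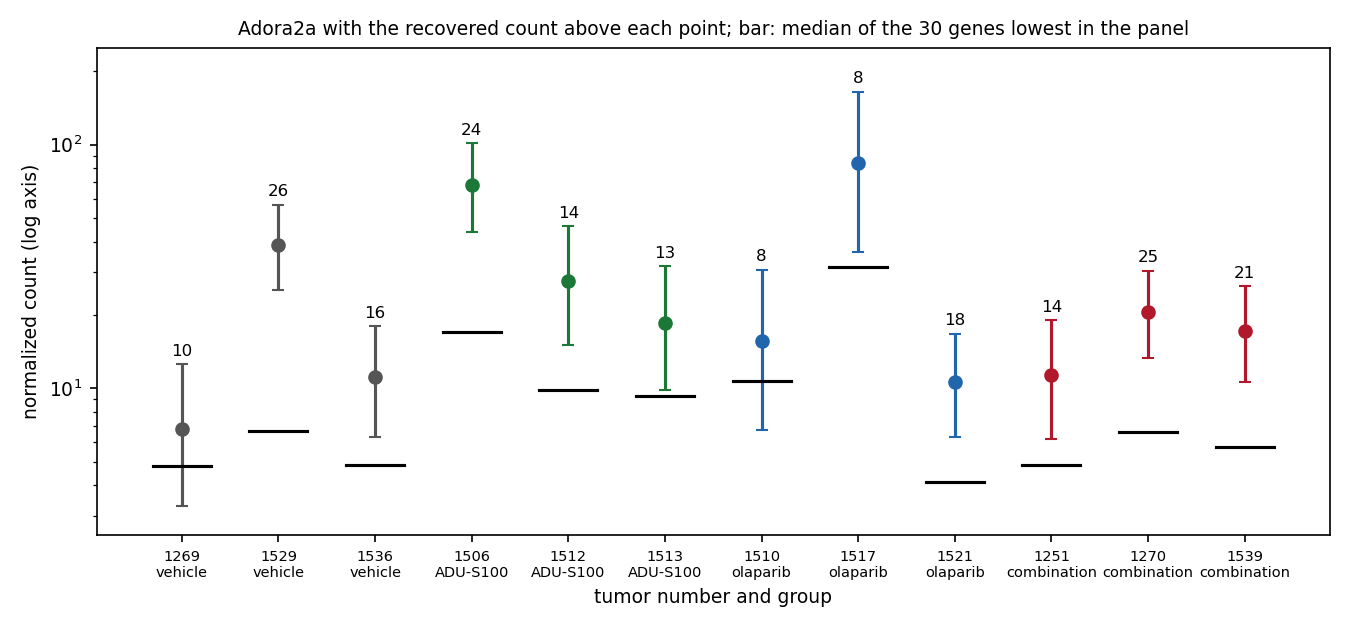
Normalized counts of Adora2a per tumor (log axis) with exact Poisson 95% intervals and the recovered count above each point. The black bar is the median in that tumor of the 30 genes with the lowest mean over the 12 tumors. The interval crosses the bar in tumors 1269 and 1510, and the highest point, tumor 1517, rests on 8 counts.

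The Adora2a means were 18.9 ± 17.3 for vehicle, 38.1 ± 26.6 for ADU-S100, 36.7 ± 40.9 for olaparib and 16.4 ± 4.69 for the combination (SD, n = 3). ADU-S100 alone stood at 1.12 relative to vehicle on the log2 scale (SE 0.81, limma adjusted p = 0.809) and olaparib alone at 0.71 (limma adjusted p = 0.755). The combination stood at 0.12 relative to vehicle, at -0.997 relative to ADU-S100 (limma adjusted p = 0.657) and at -0.58 relative to olaparib. The interaction of -1.71 (SE 1.15, 95% interval -4.23 to 0.82) had the lowest limma adjusted p of the 4 genes and 8 comparisons, 0.488. As tumors were left out it ran from -2.38 to -0.83, and it was -0.88 with the number series as a block. The difference of the combination from ADU-S100 was -0.45 with that block and -0.89 within series 15. The SD of Adora2a over the 12 tumors was 1.05, but 0.59 after scaling to the panel median and 0.46 beside leukocyte genes. Its closest genes were Timd4, a receptor for dying cells on macrophages, Cd37, a tetraspanin of leukocytes that is itself on the leukocyte list, and Il4ra, at 0.29, 0.37 and 0.37 against 0.89. Timd4 had as few as 8 recovered counts.

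Over the 8 comparisons and 4 genes, 0 of 32 differences passed the limma adjusted threshold, and the adjusted p-values ran from 0.488 to 0.999. None had an unadjusted p under 0.05. Over all 689 genes, 0% passed after adjustment in each comparison. At the unadjusted level 4.79% passed for ADU-S100 against vehicle, 7.26% for olaparib against vehicle, 7.69% for the combination against vehicle, 9.14% for the combination against ADU-S100, 7.26% for the combination against olaparib, 3.05% for ADU-S100 given against not given, 7.55% for olaparib given against not given and 10.9% for the interaction. The median difference over all genes was 0.44 for ADU-S100 and 0.45 for olaparib against vehicle, 0.21, -0.22 and -0.15 for the combination against vehicle, ADU-S100 and olaparib, and -0.55 for the interaction. The members' differences above therefore carry these shifts. In 2 of 20 comparisons of single groups the tumors did not overlap, those of Nt5e and Ada in combination against ADU-S100 tumors, and this also held after scaling to the panel median, where 31.5% of all genes did not overlap in that comparison. No member was free of overlap in the others, where the share of all genes was 14.9% for ADU-S100 against vehicle, 4.79% for olaparib against vehicle, 20% for the combination against vehicle and 12.8% for the combination against olaparib. The interval of Entpd1 in olaparib against vehicle covered folds from 0.325 to 9.96.

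**Figure D3:**
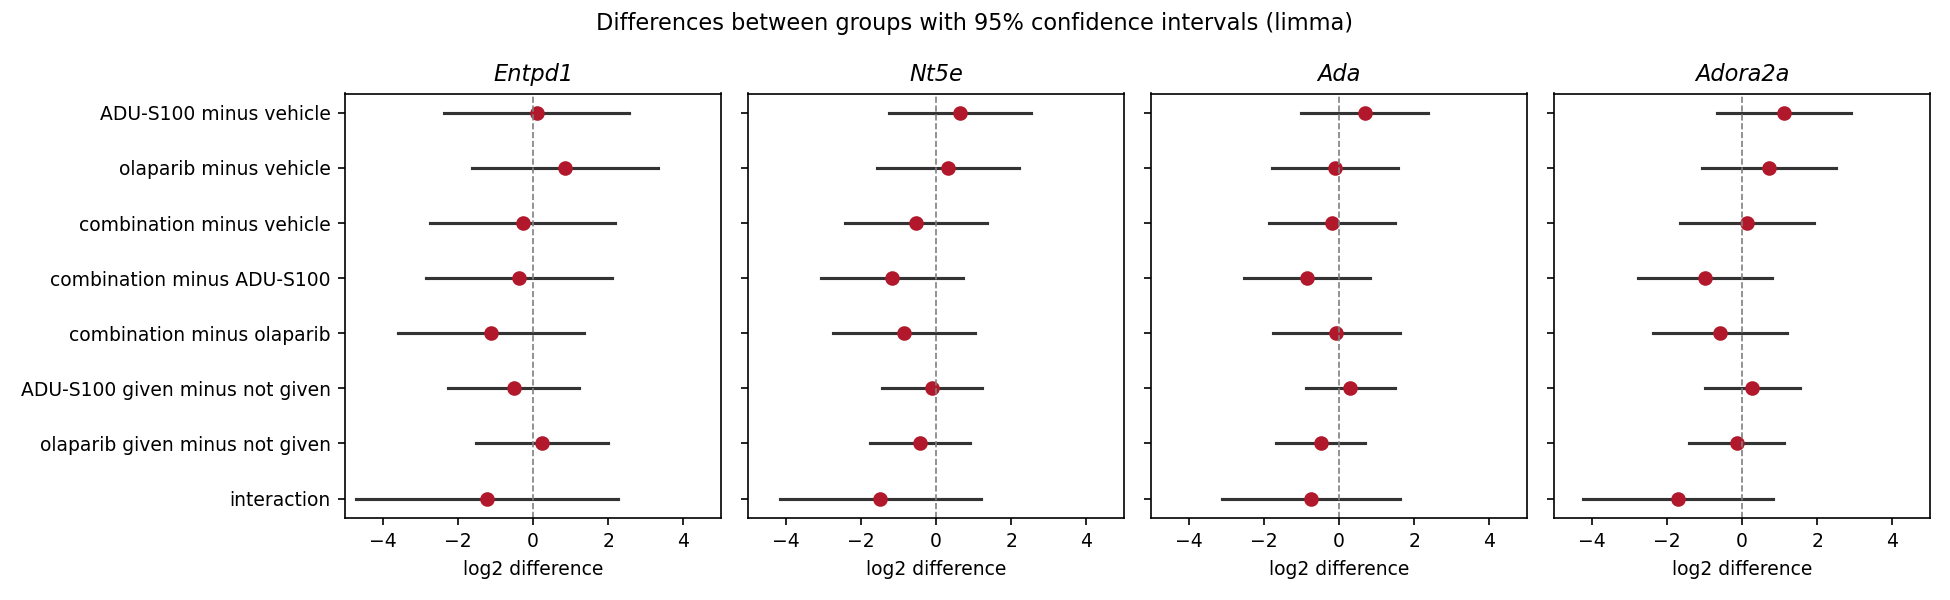
Log2 differences of Entpd1, Nt5e, Ada and Adora2a in the 8 comparisons (horizontal axis, log2 scale), with points for the limma estimates and lines for the 95% intervals. All 32 intervals cross 0, and the interaction is below 0 for each gene, at -1.22, -1.48, -0.75 and -1.71. Of all 689 genes tested, 30.9% had an interaction above 0.

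On the deposited scale the combination group was the most uniform for these genes. Its highest tumor exceeded its lowest by 1.12-fold for Entpd1, 1.75-fold for Nt5e, 1.29-fold for Ada and 1.82-fold for Adora2a. The combination tumors 1251, 1270 and 1539 were also alike in scaling, with a single count worth 0.810, 0.824 and 0.820 normalized counts. That value ran from 0.682 to 1.49 in vehicle, from 1.43 to 2.85 in ADU-S100 and from 0.589 to 10.5 in olaparib tumors. Over the whole panel as deposited, the root mean square log2 differences between tumors were 0.546 to 0.804 within the combination, 0.796 to 1.35 within ADU-S100, 1.12 to 1.52 within vehicle and 1.42 to 2.54 within olaparib, so that the closest ADU-S100 pair was nearer than the farthest combination pair. With the panel medians made equal, the SD on the log2 scale in the combination was still the lowest of the groups for Entpd1 (0.12) and Nt5e (0.36), but ADU-S100 had the lowest for Ada (0.050 against 0.14) and Adora2a (0.35 against 0.45). The difference in spread was not tested, and treatment and scaling factor cannot be told apart in it.

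In a log2 difference between a pair of members within a tumor that tumor's factor cancels except through the pseudocount, and each difference was centred on its mean over the 12 tumors. Without the pseudocount the values moved by at most 0.10. The pair of Ada and Adora2a varied least, with an SD of 0.62, and Entpd1 and Ada varied most, with an SD of 0.95. Entpd1 relative to Ada was highest in olaparib tumors 1517 (1.63) and 1510 (1.49) and lowest in ADU-S100 tumor 1512 (-1.40). Relative to Nt5e, the next enzyme of the chain, Entpd1 was highest in tumor 1517 (1.33) and lowest in tumor 1512 (-1.90). Nt5e relative to Ada, the step that makes adenosine beside the step that removes it, reached 2.15 in olaparib tumor 1510 and fell to -1.18 in olaparib tumor 1521, the widest range of a pair within a single group. The balance between the members thus differed between tumors of a single group.

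**Figure D4:**
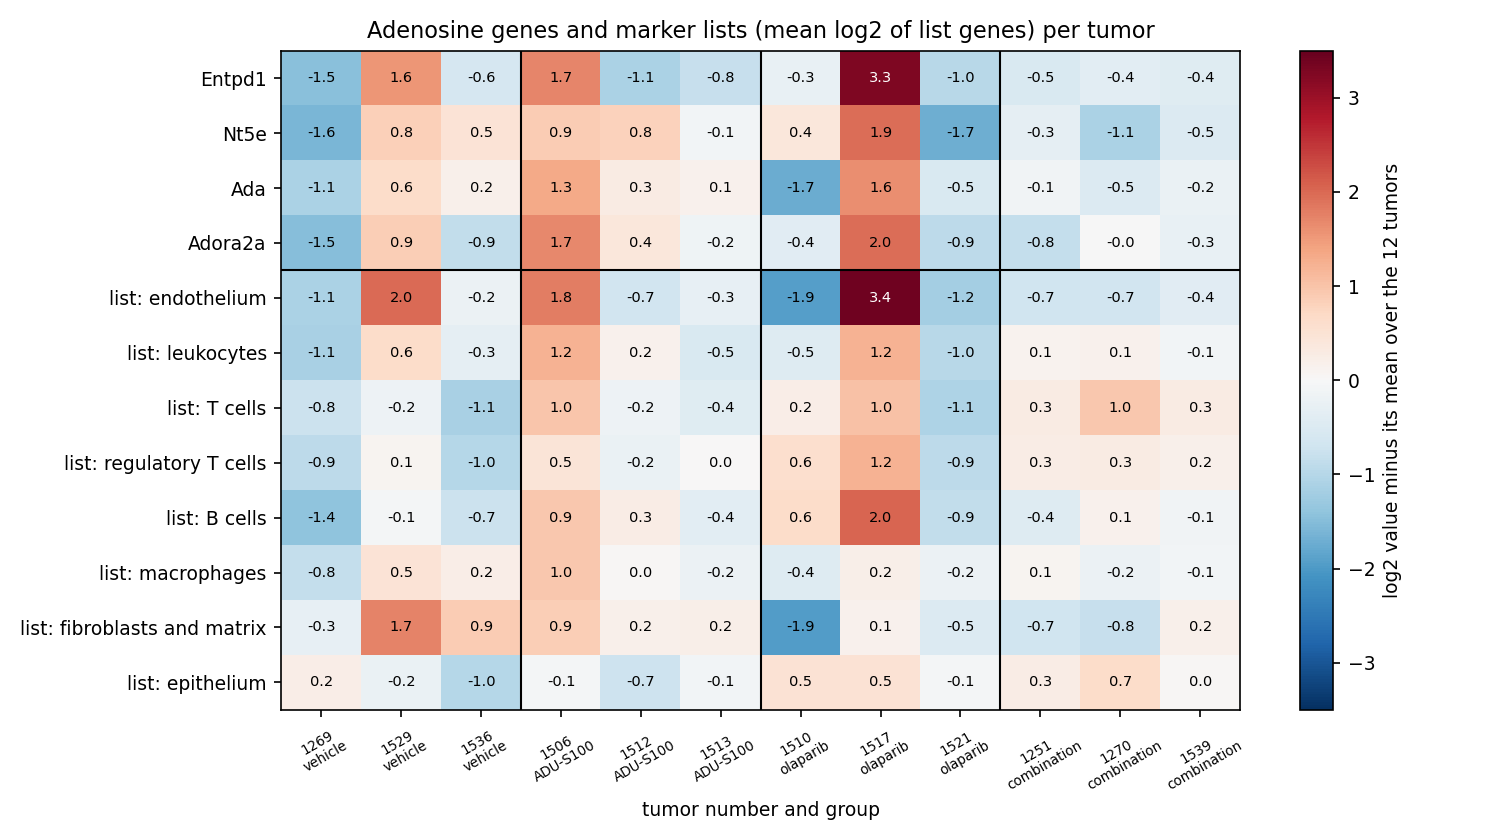
Log2 values of the 4 genes and mean log2 values of 8 marker lists in each tumor, minus their mean over the 12 tumors (color and number, log2 scale). The columns of tumors 1529, 1506 and 1517 are high for the 4 genes, for the endothelial list and for the leukocyte list (0.6, 1.2 and 1.2). Tumor 1510 is low for endothelium (-1.9), fibroblasts (-1.9) and Ada (-1.7) but not for Entpd1 (-0.3).

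Of 22 other genes of purine handling listed, 2 were on the panel, and 0 of them passed the adjusted threshold in either direction in any of the 8 comparisons. Cd38, an NAD-consuming enzyme that opens another route to adenosine, ranged from 108 to 807 normalized counts, with means of 199 ± 110 in vehicle, 243 ± 108 in ADU-S100, 360 ± 387 in olaparib and 177 ± 21.9 in combination tumors (SD, n = 3). Dpp4, a surface peptidase that anchors adenosine deaminase in humans, ranged from 9.55 to 225, with means of 56.2 ± 70.1, 97.8 ± 111, 95.5 ± 103 and 36.6 ± 6.49 in the same order of groups. Cd38 and Dpp4 were likewise highest in tumors 1517, 1506 and 1529. Beside the mean of Cd38 and Dpp4, the SD over the 12 tumors was 0.51 for Entpd1, 0.66 for Nt5e, 0.75 for Ada and 0.36 for Adora2a.

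Of 10 listed genes of hypoxia and cAMP signalling or under their control, 9 were on the panel and 0 passed the adjusted threshold in either direction. Hif1a, the oxygen-regulated subunit of the hypoxia factor, had 2321 ± 337 normalized counts in vehicle, 2310 ± 186 in ADU-S100, 2798 ± 1013 in olaparib and 2538 ± 180 in combination tumors. Vegfa, an angiogenic target of that factor, had 1585 ± 824 in vehicle, 2568 ± 1271 in ADU-S100, 1345 ± 361 in olaparib and 1248 ± 228 in combination tumors (SD, n = 3). Il10, an inhibitory cytokine, had 6.33 ± 0.446 in vehicle, 22.4 ± 17.1 in ADU-S100, 28.1 ± 23.1 in olaparib and 9.0 ± 0.801 in combination tumors. The Il10 interaction of -2.46 (SE 1.04, limma adjusted p = 0.419) was the only value of this list with an unadjusted p under 0.05, and it rested on 4 to 14 recovered counts per tumor. Il10 stood between 0.615-fold and 2.36-fold of the background used for Adora2a, and below it in 2 of 12 tumors, so this value is not read as a difference in Il10 expression.

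Marker lists gave the following values beside the members, with 0 genes past the adjusted threshold in the combination against vehicle, where 65.3% of all genes tested were above 0. Of the T cell genes tested, 11 of 11 were above 0, with a median log2 difference of 1.33 (1.17 to 1.63 as each vehicle tumor was left out). Of the regulatory T cell genes 6 of 6 were above 0, with a median of 0.64. That median became 0.40, with 5 of 6 above 0, without vehicle tumor 1269 and 1.07 without 1529. For leukocytes in general it was 3 of 4 with a median of 0.35, which became -0.16 without vehicle tumor 1269 and 0.95 without 1529. For B cells it was 2 of 2 with 0.60, which became 0.26 without tumor 1269 and 0.94 without 1529. For epithelium it was 3 of 3 with 0.47, which became 0.74 without tumor 1269 and 0.23, with 2 of 3 above 0, without 1536. Macrophage genes split, with 5 of 12 above 0 and a median of -0.07. This became 3 of 12 and -0.57 without vehicle tumor 1269, 9 of 12 and 0.16 without 1529, and 8 of 12 and 0.25 without 1536. All 6 fibroblast and matrix genes were below 0, with a median of -1.18, and -0.77 without tumor 1529. All 8 endothelial genes were below 0, with a median of -0.82, but without tumor 1529 the median was -0.025 and 3 of 8 were above 0. Over the 4 members, the same differences were -0.28, -0.53, -0.18 and 0.12, and over all genes the median was 0.21.

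In the combination against ADU-S100, where Nt5e and Ada did not overlap, 40.3% of all genes were above 0. None of the 6 fibroblast and matrix genes was above 0 (median -0.78), and their sums did not overlap either, with 13714 to 27430 normalized counts in the combination and 31959 to 52999 in ADU-S100 tumors. None of the 8 endothelial genes was above 0 (median -0.86), and their sums overlapped. Above 0 were 8 of 11 T cell genes (median 0.41), 2 of 3 epithelial (0.77), 1 of 4 leukocyte (-0.31), 2 of 6 regulatory T cell (-0.11), 3 of 12 macrophage (-0.40) and 0 of 2 B cell genes (-0.41), all with overlapping sums. Of the hypoxia and cAMP genes 5 of 9 were above 0, and their sums did not overlap (10086 to 12428 in the combination, 12610 to 17764 in ADU-S100). The part of cell composition in the members' values was not tested.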

How the data were processed

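RNA (100 ng) from 12 tumors was counted on the nCounter mouse immune panel. The authors processed the counts with nSolver 4.0 (background correction, scaling against positive controls and housekeeping genes) and deposited a linear signal, the normalized count, for 750 genes. Housekeeping and control probes were not analysed here. Of the symbols, 736 matched RefSeq. Whole counts were recovered by finding for each tumor the step of which its values are multiples, with values at the floor of 1 set aside. Within 0.01 of a count, 99.87% or more of a tumor's values were whole.

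Limma 3.58.1 in R 4.3.3 was fitted to log2(normalized count + 1) with a mean for each group over all 12 tumors, for 689 genes with at least 20 in at least 3 tumors. The pseudocount understates changes of low genes. P-values were adjusted by Benjamini-Hochberg over all 689 genes, with a threshold of 0.05. The quasi-likelihood test of edgeR 4.0.16 on recovered counts was an alternative, and the fits were tested on simulated data. Other alternatives were a pseudocount of 10, no filter, background subtraction, median scaling, the methods' t-test on the groups compared, the tumor number series and leaving out each tumor. Equal panel medians for the ranking of tumors, pairs without the pseudocount, the endothelial list without Tek, marker lists without each vehicle tumor and the Benjamini-Yekutieli adjustment of the t-test were added after seeing the data.

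The 4 genes and the lists were chosen with earlier results of these data known. Named were the members, the listed purine genes on the panel, examples from the marker lists and, for each member, the 3 genes closest in pattern. Closeness was measured as the root mean square difference of centred log2 values. Of the hypoxia and cAMP genes, Hif1a, Vegfa and Il10 are given with values, whereas Creb1, Creb5, Crebbp, Tgfb1, Thbs1 and Pdcd1 are not. Tumors were assigned by their labels. Figures were drawn with matplotlib 3.10.9.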

Additional observations from a re-analysis of the deposited data

How the results depend on the processing

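Of 668 recomputed differences of the 4 genes under 21 alternative settings, 601 kept their direction, 67 reversed and 0 passed the adjusted threshold, with a lowest adjusted p of 0.119 (limma, Nt5e interaction without olaparib tumor 1521). Some of the 601 could not reverse. In comparisons of single groups, leaving out a tumor of a group not compared gave the same difference again. Running no filter or the methods' t-test also repeated the main difference, with 0 of 32 and 0 of 28 reversed. The direction held in all settings run for 9 of 32 results: Nt5e, Ada and Adora2a in the combination against ADU-S100, Nt5e in the combination against vehicle, Ada and Adora2a in ADU-S100 against vehicle, Ada in olaparib given against not given, and the interactions of Nt5e and Adora2a. Several of these shrank with the number series as a block, to -0.34, -0.33 and -0.45 for Nt5e, Ada and Adora2a in the combination against ADU-S100, -0.12 for Nt5e in the combination against vehicle, 0.41 for Ada in ADU-S100 against vehicle, and -0.24 and -0.88 for the interactions of Nt5e and Adora2a. Low counts limit Adora2a most. The cause of the reversals was not tested. No paired analysis was possible because the tumor numbers are unique to each tumor and pair no samples between groups. With each tumor scaled to the same median, the reversed differences were Entpd1 -0.31 (ADU-S100 against vehicle), Nt5e -0.034 (olaparib against vehicle), Ada 0.074 (combination against olaparib), Adora2a -0.054 (combination against vehicle). With edgeR and TMM, the reversed differences were Entpd1 -0.41 (ADU-S100 against vehicle), Nt5e -0.079 (ADU-S100 against vehicle) and -0.22 (olaparib against vehicle), Ada -0.063 (ADU-S100 given against not given), Adora2a -0.33 (combination against vehicle). With the number series (12 or 15) as a block, the reversed differences were Entpd1 -0.24 (ADU-S100 against vehicle) and 0.057 (combination against vehicle) and 0.29 (combination against ADU-S100), Nt5e -0.10 (olaparib against vehicle) and 0.10 (ADU-S100 given against not given), Ada 0.084 (combination against vehicle) and 0.47 (combination against olaparib) and 0.055 (interaction). In number series 15 alone, where the combination is 1 tumor assumed to vary like the other groups, the reversed differences were Entpd1 -0.56 (ADU-S100 against vehicle) and -0.079 (olaparib given against not given), Nt5e -0.12 (ADU-S100 against vehicle) and -0.44 (olaparib against vehicle), Adora2a -0.26 (combination against vehicle). With edgeR and the deposited scaling, the reversed differences were Ada 0.30 (olaparib against vehicle) and -0.018 (ADU-S100 given against not given), Adora2a -0.15 (combination against vehicle). With background subtracted, the reversed differences were Ada 0.089 (combination against olaparib). As tumors were left out, the Entpd1 differences that reversed ran from -0.79 to 0.95 (ADU-S100 against vehicle), -0.45 to 1.71 (olaparib against vehicle), -0.93 to 0.58 (combination against vehicle), -0.89 to 0.52 (combination against ADU-S100), -1.95 to 0.17 (combination against olaparib), -0.96 to 0.13 (ADU-S100 given against not given), -0.41 to 0.68 (olaparib given against not given), -2.08 to 0.078 (interaction). As tumors were left out, the Nt5e differences that reversed ran from -0.12 to 1.10 (ADU-S100 against vehicle), -0.55 to 1.27 (olaparib against vehicle), -1.81 to 0.015 (combination against olaparib), -0.59 to 0.32 (ADU-S100 given against not given), -0.86 to 0.053 (olaparib given against not given). As tumors were left out, the Ada differences that reversed ran from -1.04 to 0.65 (olaparib against vehicle), -0.70 to 0.19 (combination against vehicle), -0.84 to 0.86 (combination against olaparib), -0.080 to 0.77 (ADU-S100 given against not given), -1.52 to 0.18 (interaction). As tumors were left out, the Adora2a differences that reversed ran from -0.16 to 1.38 (olaparib against vehicle), -0.37 to 0.80 (combination against vehicle), -1.15 to 0.29 (combination against olaparib), -0.013 to 0.70 (ADU-S100 given against not given), -0.58 to 0.19 (olaparib given against not given). Counts of genes past the adjusted threshold, 0 in each comparison, became 1 for the combination against ADU-S100 with a pseudocount of 10 or median scaling and 3 for the combination against vehicle with the methods' t-test after Benjamini-Hochberg adjustment. With the Benjamini-Yekutieli adjustment that the study used, added after seeing the data, the t-test gave 0 genes in each of the 7 comparisons it was run for, with 11 to 122 at an unadjusted p under 0.05. It was not run for the interaction. As tumors were left out they ran from 0 to 1 for the combination against ADU-S100 (1 without tumor 1506), 0 to 54 for the combination against olaparib, 0 to 55 for olaparib against vehicle and 0 to 86 for the interaction, each highest without tumor 1521. Over the alternatives that left out no tumor, edgeR gave 0 in all comparisons, with 21 to 124 genes at an unadjusted p under 0.05.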
